A study of Mus musculus with 9 samples.

Results

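Extracellular matrix is cut and remodelled by zinc-dependent metalloproteinases, and the genes for these enzymes and for their TIMP inhibitors were taken as every gene of the deposited table whose symbol is Mmp or Adam followed by a number, begins with Adamts, or is Timp1 to Timp4. This gave 84 of the 24062 genes: 23 Mmp, 33 Adam, 24 Adamts genes of which 5 are Adamts-like (Adamtsl), and 4 Timp genes. RNA was sequenced from mouse embryonic fibroblasts, primary cells grown from embryos, of the C57BL/6 strain, 10 days after lentiviral transfer. The 3 groups were cells overexpressing p21, cells overexpressing p16 and cells given a control lentivirus written EV in the titles, with 3 libraries each. p21 and p16 are inhibitors of cyclin-dependent kinases that can hold cells in senescence, and the series is titled for the bioactive secretome that p21 gives to stressed cells. The status label reads senescent for the p21 libraries and for the control libraries too, and the p16 libraries carry neither that label nor a lentivirus label, so that their group rests on their titles. The p16 libraries also have sample numbers far from those of the p21 and control libraries, which follow one another. If they were prepared apart, an effect of p16 could not be told apart from that difference in either comparison that uses them. The labels do not say whether the vector sequences are murine, how many embryos were used or whether replicates were separate cultures, so p-values cover only the spread from library to library, of which that between replicates 1 and 2 may be technical, while replicate 3 also differed in sex-linked transcripts.

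MMPs are secreted or membrane-bound enzymes that are made as inactive precursors and that cleave collagens, elastin, proteoglycans and other proteins of the matrix. ADAMs are mostly membrane proteins that cut other membrane proteins loose, ADAMTS enzymes are secreted and act on proteoglycans, procollagens and microfibrils, and ADAMTS-like proteins have no catalytic domain. TIMPs are secreted and block the active site of MMPs and of some ADAMs and ADAMTSs, TIMP3 being the one bound to matrix. In fibroblasts, MMPs such as MMP3 and MMP13 are known as secreted products of senescent or stimulated cells.

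Libraries held 56.9 to 76.1 M counts (M, 10 to the power 6), and 60 to 66 of the 84 genes had a read in a library. The 84 genes took 0.762%, 0.751% and 0.798% of the counts of the p21 libraries, 0.634%, 0.659% and 0.691% of the p16 libraries and 0.538%, 0.576% and 0.593% of the control libraries. Cdkn1a, which encodes p21, averaged 1130 CPM in p21, 419.5 CPM in p16 and 366 CPM in control cells, and Cdkn2a, which encodes p16, averaged 95.6 CPM in p21, 1017 CPM in p16 and 63.1 CPM in control cells. CPM are counts per 1 M counts of a library after TMM scaling. Replicate 3 of each group stood apart in sex-linked transcripts, with Xist at 158 CPM in p21, 262 CPM in p16 and 397 CPM in control replicate 3 and at no more than 1.34 CPM in the other libraries. The Y-linked Ddx3y was at 10.8 CPM in p21, 1.26 CPM in p16 and 1.10 CPM in control replicate 3, and at 50.1 CPM or more in the other libraries. Uty, Kdm5d and Eif2s3y were likewise higher in p21 replicate 3 than in p16 or control replicate 3, so these libraries were not alike in sex-linked transcripts. The fibroblast markers Col1a1 and Vim were abundant, with Col1a1 at 10879 to 17256 CPM over all libraries, while Pdgfra averaged 12.4 CPM in p21, 18.5 CPM in p16 and 29.4 CPM in control cells, and Lum averaged below 1 CPM in each group.

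On chromosome 9, 10 Mmp genes stand side by side (GRCm38, also called mm10, 7272514 to 7699585, 427.1 kb), in the order Mmp13, Mmp12, Mmp1b, Mmp3, Mmp1a, Mmp10, Mmp8, Mmp27, Mmp20 and Mmp7. Of these 10 genes 4 passed the filter on low counts (Mmp13, Mmp12, Mmp3 and Mmp10), and their promoter windows are shown because these 4 genes gave the largest fold changes of all the tested Mmp genes in p21 cells. The windows come from RefSeq on GRCm38.p6 and run from 250 bases before to 50 bases after the annotated start, all on the plus strand. Capitals mark TGANTCA, the letters bound by AP-1, and TATAAA, letters found in TATA boxes, each searched on both strands anywhere in the window. They do not overlap in these windows. TATAAA was added to the search after the data were seen.
Mmp13, chr9:7272264-7272563: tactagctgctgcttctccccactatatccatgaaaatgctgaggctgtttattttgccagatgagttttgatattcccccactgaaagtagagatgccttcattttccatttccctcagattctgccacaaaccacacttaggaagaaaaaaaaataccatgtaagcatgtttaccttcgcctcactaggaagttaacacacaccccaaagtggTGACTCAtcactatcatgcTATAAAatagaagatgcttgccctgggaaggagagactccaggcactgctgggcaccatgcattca
Mmp12, chr9:7347124-7347423: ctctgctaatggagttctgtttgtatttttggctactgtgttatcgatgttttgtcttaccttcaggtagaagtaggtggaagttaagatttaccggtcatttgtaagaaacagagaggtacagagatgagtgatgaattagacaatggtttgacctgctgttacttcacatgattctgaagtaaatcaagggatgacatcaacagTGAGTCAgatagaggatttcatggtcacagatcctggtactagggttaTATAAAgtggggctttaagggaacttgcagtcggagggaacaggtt
Mmp3, chr9:7445572-7445871: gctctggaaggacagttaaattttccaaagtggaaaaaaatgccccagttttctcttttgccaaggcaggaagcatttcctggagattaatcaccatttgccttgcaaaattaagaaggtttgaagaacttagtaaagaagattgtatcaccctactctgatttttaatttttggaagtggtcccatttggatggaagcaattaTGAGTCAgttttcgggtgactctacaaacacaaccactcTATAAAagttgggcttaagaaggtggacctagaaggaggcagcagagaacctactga
Mmp10, chr9:7502092-7502391: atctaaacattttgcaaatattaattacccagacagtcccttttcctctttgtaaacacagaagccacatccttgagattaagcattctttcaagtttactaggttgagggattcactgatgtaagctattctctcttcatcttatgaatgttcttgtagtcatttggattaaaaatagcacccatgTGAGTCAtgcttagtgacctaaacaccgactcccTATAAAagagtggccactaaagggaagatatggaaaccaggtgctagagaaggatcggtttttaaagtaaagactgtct
The TGANTCA match begins 35 bases before the start in Mmp13, 44 bases before it in Mmp12, 46 bases before it in Mmp3 and 63 bases before it in Mmp10. The TATAAA match begins 16 bases before the start in Mmp13, 7 in Mmp3 and 29 in Mmp10, and past the annotated start in Mmp12. Mmp12 has another RefSeq window, chr9:7344147-7344446, which holds neither match. Windows of 53 of the 84 genes were found. TGANTCA was present in 8 of the 10 genes of the cluster (not in Mmp8 or Mmp27) and in 8.97% of the 27025 genes with a window. It was present in 13 of the 53 genes (24.5%), but 8 of these 13 are the genes of the cluster. TATAAA was present in 9 of the 10 genes and in 15.7% of all genes. Both were present in 8 of the 10 genes, against 2.08% of all genes, and none of the 4 Timp windows held either. The 8 genes include Mmp1a, Mmp7 and Mmp20, with 0 reads each, and Mmp1b with 15 reads, none of which passed the filter. As neighbours of 1 family, the genes of the cluster are not separate instances to set against the share of all genes. The matches are letters in these windows and no measure of binding.

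Of the 84 genes, 56 passed the filter and were tested, 16 Mmp, 16 Adam, 21 Adamts with Adamts-like, and 3 Timp genes. Another 15 had no read in any library, and 13 had 1 to 45 reads over all 9 libraries, with at most 0.175 CPM in a library. Among the untested genes were Timp4 with 40 reads, the interstitial collagenase genes Mmp1a with 0 reads, Mmp1b with 15 and Mmp8 with 2, and Mmp7, the matrilysin gene, with 0. Mmp12 met the count minimum in 3 p21, 2 p16 and 0 control libraries, so it entered the test through the group in which it was high, and Adamts16 met it in 0 p21, 2 p16 and 3 control libraries.

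Per kb of exon, the inhibitor genes led. Averaged over the 9 libraries, Timp1 stood at 867 CPM per kb and Timp2 at 384 CPM per kb, followed by Mmp2 (147), Mmp14 (114), Timp3 (104), Adam9 (86.0), Adam19 (69.4), Mmp23 (35.1), Adam10 (32.4) and Adamts1 (27.9), all in CPM per kb. The Mmp genes best known from senescent cells were low on this scale, with Mmp3 at 0.926, Mmp13 at 0.746 and Mmp9 at 0.753 CPM per kb.

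**Figure D1:**
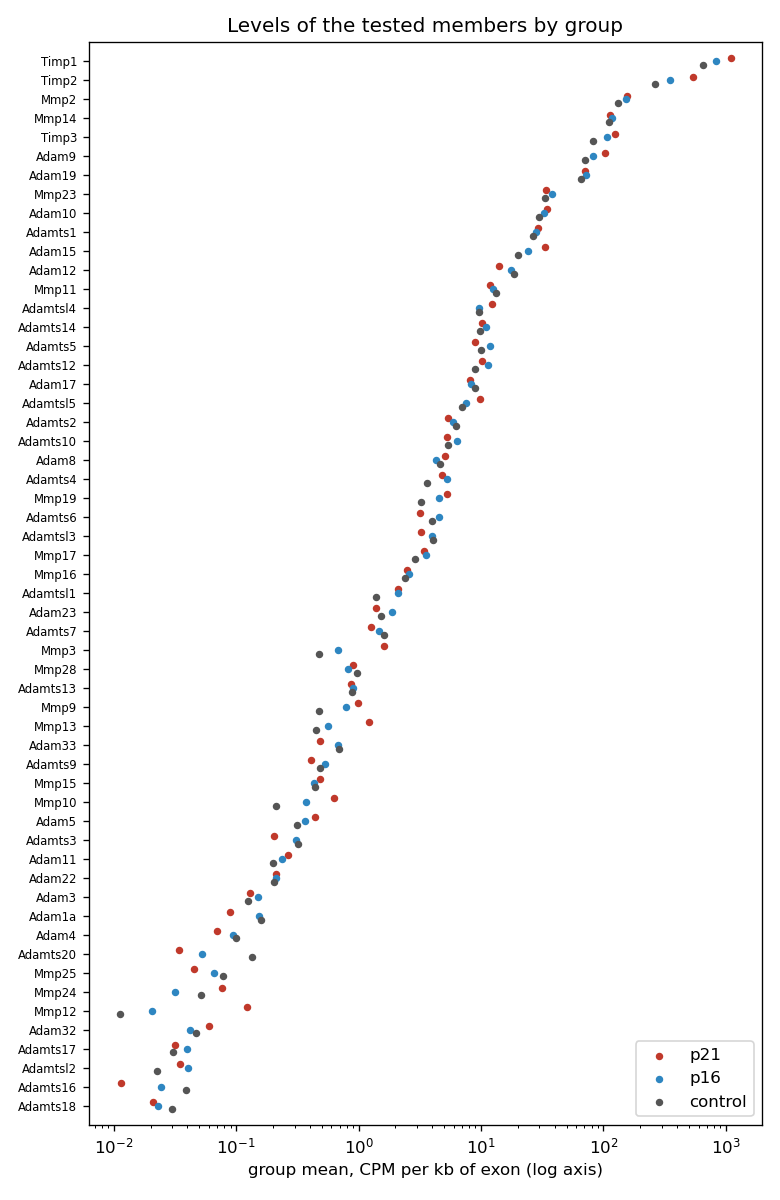
Mean level of each of the 56 tested genes in p21, p16 and control cells, in CPM per kb of exon on a log axis, each point the mean of 3 libraries and genes ordered by their mean over the 9 libraries. Timp1 and Timp2 stand at the top, and Mmp12 and Adamts20, lower down, are among the genes with the widest distance between the p21 and control points.

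The p21 libraries were first set against the control libraries. The inhibitor genes Timp1, Timp2 and Timp3 rose, as did 8 of the 16 tested Mmp genes (50%, against 19.3% of all genes tested). Of these Mmp genes, Mmp12, Mmp3, Mmp10, Mmp13 and Mmp9 were higher by more than 2-fold but rare. The abundant Mmp14 did not pass, at 0.01 ± 0.0449 (log2 fold change ± SE, adjusted p = 0.912). Among Adam genes Adam15, Adam9 and Adam10 rose and Adam12 and Adam1a fell. Of the 56 tested genes 22 passed an adjusted p of 0.05 in edgeR's quasi-likelihood test, 17 higher and 5 lower in p21 cells, which is 30.4% and 8.93% of them. Of all 14572 genes tested, 39.9% passed in this contrast, 19.3% higher and 20.7% lower. The count of called members is thus near the background, and it is split towards higher values. The median log2 fold change was 0.08 over the 56 genes and -0.01 over all genes tested.

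Timp2 encodes the inhibitor that also serves, with MMP14, to bring proMMP2 to the cell surface for activation. Timp2 (chromosome 11, 118301069 to 118355740, minus strand) stood at 2166, 2039 and 2115 CPM in p21 libraries, at 1287, 1389 and 1387 CPM in p16 libraries and at 977, 1064 and 1043 CPM in control libraries. The 3 groups did not overlap, with p21 highest and p16 between. Timp2 was 2.05-fold higher in p21 than in control cells (log2 1.04 ± 0.0519, adjusted p = 6.5e-06), the lowest adjusted p of the 56 genes.

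Timp1, an X-linked gene (chromosome X, 20870166 to 20874735, plus strand), encodes an inhibitor of most secreted MMPs that acts poorly on MMP14. It stood at 1039, 950.4 and 970.02 CPM in p21 libraries, at 764, 747 and 714 CPM in p16 libraries and at 588, 626 and 532 CPM in control libraries. The order of the groups was that of Timp2, again with no overlap, also among replicates 1 and 2 alone, which share their pattern of sex-linked transcripts. It was 1.69-fold higher in p21 than in control cells (log2 0.76 ± 0.0643, adjusted p = 3.2e-05).

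Timp3, which encodes the matrix-bound inhibitor of ADAM17 and of the aggrecan-cleaving ADAMTSs, stood at 867, 961 and 1200.1 CPM in p21 libraries, at 726, 809 and 1056 CPM in p16 libraries and at 497, 674 and 843 CPM in control libraries. Replicate 3 was the highest library of each group, and the p21 libraries lay above the control libraries by a margin that is small beside that spread. Timp3 was 1.504-fold higher (log2 0.59 ± 0.201, adjusted p = 0.0413). Without control replicate 1 the adjusted p was 0.0988, without control replicate 2 it was 0.0972, without p21 replicate 2 it was 0.0718, without p21 replicate 3 it was 0.13 and without p16 replicate 2 it was 0.0573. Exons of Syn3, a gene at 0.466 CPM on the other strand, overlap 21.3% of the exon bases of Timp3, and the library kit does not mark strand.

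**Figure D2:**
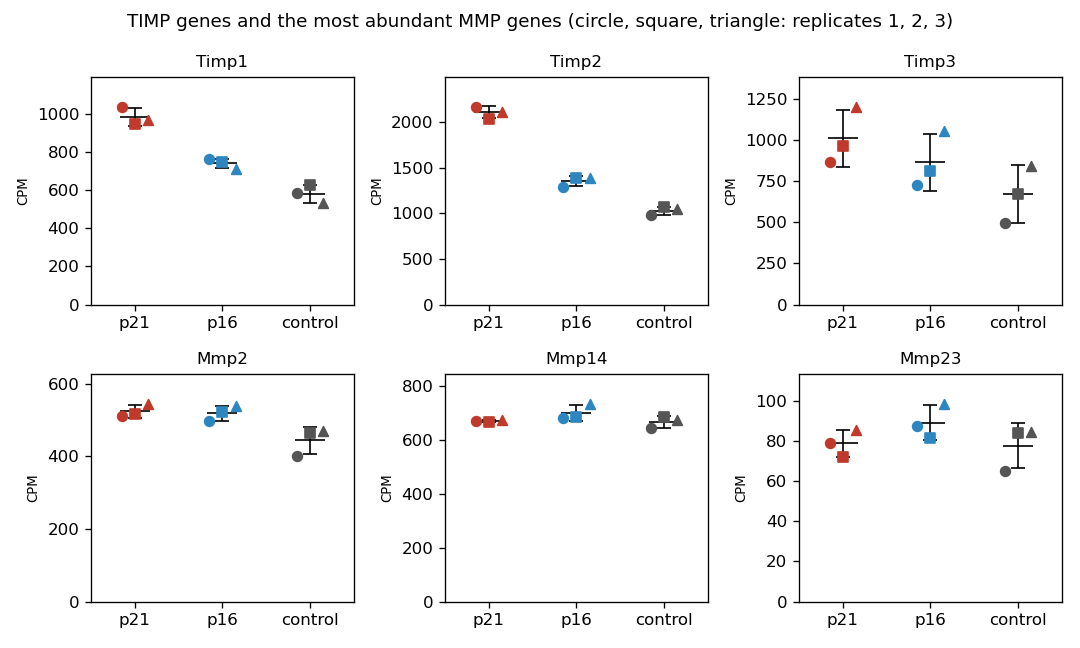
CPM of the 3 tested Timp genes and of Mmp2, Mmp14 and Mmp23 in each library of the p21, p16 and control groups, with the mean as a wide line and the SD as bars (n = 3). Timp1 and Timp2 fall into 3 separate groups of libraries with p21 at the top, whereas Mmp14 lies between 643 and 734 CPM in all 9 libraries.

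Mmp2, the gelatinase A gene and the most abundant Mmp gene per kb, stood at 512, 518 and 545 CPM in p21 libraries, at 497, 522 and 538 CPM in p16 libraries and at 402, 464 and 469 CPM in control libraries. The p21 and p16 libraries lay side by side and above every control library. Mmp2 was 1.18-fold higher in p21 than in control cells (log2 0.24 ± 0.0637, adjusted p = 0.0147). Mmp14, which encodes the membrane-type enzyme that activates proMMP2 and cuts collagen at the cell surface, stood at 670.4, 665 and 675 CPM in p21 libraries, at 680.02, 685 and 734 CPM in p16 libraries and at 643, 684 and 674 CPM in control libraries. The groups overlapped. Of the 6 membrane-type Mmp genes tested, 1 passed as higher (16.7%, against 19.3% of all genes tested), so this count is near the background. That gene was Mmp17 (1.19-fold, adjusted p = 0.0463), with overlapping libraries. It lost its call without any single p21 or control library other than p21 replicate 3 and control replicate 1, with adjusted p from 0.0822 to 0.126, and without each p16 library, with 0.0587, 0.0601 and 0.0518 for replicates 1, 2 and 3. Mmp17 also lost its call with only the 2 groups compared.

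The 4 tested genes of the chromosome 9 cluster were rare in every group and highest in p21 cells. Mmp13, the main interstitial collagenase gene of mice, stood at 2.96, 3.43 and 3.45 CPM in p21 libraries, at 1.79, 1.45 and 1.29 CPM in p16 libraries and at 1.88, 0.811 and 0.893 CPM in control libraries. Every p21 library was above every other library, and the p16 libraries lay within the control range. Mmp13 was 2.74-fold higher in p21 than in control cells (log2 1.45 ± 0.293, adjusted p = 0.00365).

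Mmp3, the stromelysin 1 gene, stood at 2.40, 3.89 and 2.49 CPM in p21 libraries, at 1.10, 1.29 and 1.29 CPM in p16 libraries and at 1.29, 0.824 and 0.446 CPM in control libraries. Mmp10, the stromelysin 2 gene, stood at 1.24, 0.920 and 1.12 CPM in p21 libraries, at 0.492, 0.734 and 0.698 CPM in p16 libraries and at 0.626, 0.247 and 0.223 CPM in control libraries. In both genes the p21 libraries were the 3 highest and control replicate 1 was the highest control library, as it was for Mmp13. Mmp3 was 3.41-fold (log2 1.77 ± 0.337, adjusted p = 0.00271) and Mmp10 2.97-fold higher in p21 cells (log2 1.57 ± 0.378, adjusted p = 0.00901). Without control replicate 1 the log2 fold change of Mmp10 was 2.21 (adjusted p = 0.000728).

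Mmp12, the macrophage elastase gene, had 33, 54 and 82 reads in p21 libraries, 6, 12 and 12 in p16 libraries and 8, 10 and 0 in control libraries. That is 0.454, 0.789 and 1.44 CPM in p21, 0.098, 0.176 and 0.174 CPM in p16 and 0.104, 0.137 and 0 CPM in control libraries. All p21 libraries were above all others, and replicate 3 was the highest of them. The fold change was 10.7 (log2 3.42 ± 0.697, adjusted p = 0.00388). Mmp12 met the count minimum in 0 control libraries and entered the test through its p21 libraries. Its p-values are therefore a description and no independent support for the rise. With replicates 1 and 2 only the log2 fold change was 2.35 (adjusted p = 0.00763), and without control replicate 2 it was 4.01 (adjusted p = 0.0098).

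Most markers of macrophages were, like Mmp12, higher in p21 cells. The summed level of the 16 macrophage markers in the table was 29.2 to 52.6 CPM in p21, 11.8 to 17.1 CPM in p16 and 14.7 to 17.7 CPM in control libraries, and none was at 0 in all libraries. Lyz2, the lysozyme gene of myeloid cells and the most abundant of the 16, stood at 12.3, 16.3 and 23.3 CPM in p21, at 2.97, 4.52 and 4.85 CPM in p16 and at 3.13, 3.87 and 4.64 CPM in control libraries. The p21 replicate 3 library was the highest for Lyz2 as for Mmp12, but p21 replicate 2 was the highest for Mrc1 and Fcer1g. Of the 16 markers 11 were higher in p21 than in control cells (68.8%, against 19.3% of all genes tested). Cd14 was level, averaging 2.68 CPM in p21, 2.66 CPM in p16 and 2.84 CPM in control cells. Between p16 and control cells 0 of the 16 passed, against 7.22% of all genes tested, and their median log2 fold change was -0.32. That of Mmp12 was 0.88 there and did not pass either. The part of macrophages in the Mmp12 result was not tested. The 7 neutrophil markers in the table summed to at most 0.701 CPM. In bulk RNA, fewer cells of a type and less RNA per cell cannot be told apart.

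**Figure D3:**
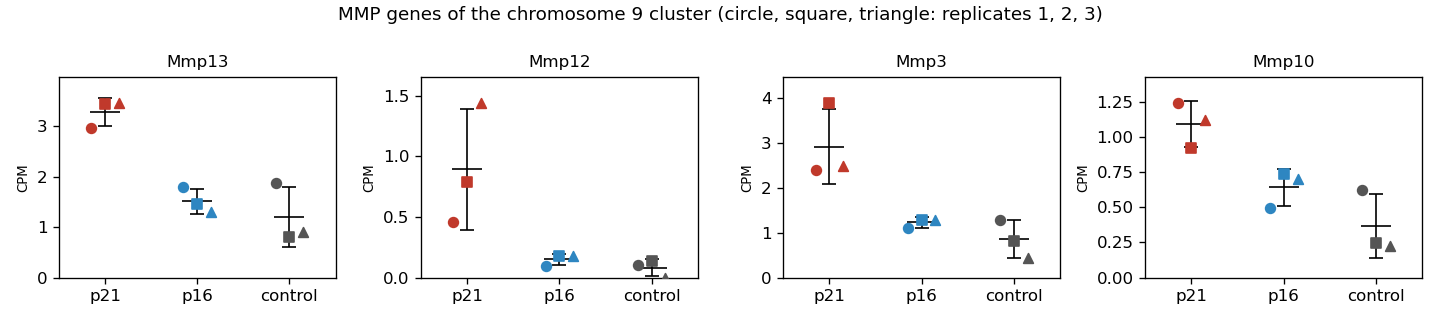
CPM of the 4 tested Mmp genes of the chromosome 9 cluster in each library of the p21, p16 and control groups, with the mean as a wide line and the SD as bars (n = 3). The 3 p21 libraries are the highest for each gene, from 2.96 to 3.45 CPM for Mmp13 and from 0.454 to 1.44 CPM for Mmp12.

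The other Mmp genes that passed were Mmp9 and Mmp19. Mmp9, the gelatinase B gene, stood at 4.06, 1.96 and 4.52 CPM in p21 libraries, at 2.67, 1.61 and 4.13 CPM in p16 libraries and at 1.49, 1.65 and 1.91 CPM in control libraries. Replicate 2 was the lowest library in both overexpressing groups. It was 2.08-fold higher in p21 cells (log2 1.06 ± 0.368, adjusted p = 0.0441), and leaving out control replicate 1, 2 or 3, p21 replicate 1 or 3, or p16 replicate 1 gave adjusted p of 0.101, 0.107, 0.0644, 0.128, 0.128 and 0.0624 in that order. The call was also lost with replicates 1 and 2 only. Mmp19, whose product cleaves basement membrane proteins, was 1.62-fold higher (adjusted p = 0.0325), at 18.9, 15.7 and 21.3 CPM in p21, 14.9, 14.3 and 18.8 CPM in p16 and 7.56, 11.8 and 15.1 CPM in control libraries. Its adjusted p was 0.0507 without control replicate 1, 0.0745 without control replicate 2, 0.0822 without p21 replicate 1 and 0.0923 without p21 replicate 3. Mmp19 also lost its call with only the 2 groups compared. Exons of Tmem198b, at 34.9 CPM on the other strand, overlap 22.3% of the exon bases of Mmp19, so the reads of the 2 genes cannot be told apart there. Mmp23 did not pass, at 79.3, 72.1 and 85.6 CPM in p21, 87.7, 81.6 and 98.7 CPM in p16 and 65.2, 84.0 and 84.5 CPM in control libraries.

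Of the 16 tested Adam genes 3 rose and 2 fell in p21 cells, 18.8% and 12.5% of them, against 19.3% and 20.7% of all genes tested, so these counts are not above the background. Adam15, which encodes metargidin, an ADAM with an integrin-binding sequence, stood at 218, 203 and 195 CPM in p21 libraries, at 151, 146 and 151 CPM in p16 libraries and at 129, 123 and 116 CPM in control libraries. The 3 groups were as fully separated as for Timp1 and Timp2 and stood in the same order. Adam15 was 1.68-fold higher in p21 than in control cells (log2 0.75 ± 0.0569, adjusted p = 2.0e-05). An annotated antisense transcript overlaps 20.6% of its exon bases.

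Adam9, the meltrin gamma gene, stood at 428, 481 and 375 CPM in p21, 336, 376 and 309 CPM in p16 and 328, 285 and 267 CPM in control libraries, with every p21 library above every control library (1.46-fold, log2 0.55 ± 0.108, adjusted p = 0.00333). Adam10 and Adam17 encode the main sheddases, ADAM10 being the one that cuts Notch receptors after ligand binding and ADAM17 the one that releases TNF. Adam10 stood at 167, 179 and 166 CPM in p21, 158, 175 and 153 CPM in p16 and 152, 144 and 140.2 CPM in control libraries (1.17-fold, adjusted p = 0.0138). Adam17 stood at 54.8, 56.2 and 62.8 CPM in p21, 58.7, 57.8 and 60.2 CPM in p16 and 62.0, 63.0 and 66.7 CPM in control libraries and did not pass (log2 -0.14 ± 0.0588, adjusted p = 0.0821). The p21 libraries were higher than the control libraries for Adam10, and for Adam17 the 2 groups overlapped. Adam8 and Adam19 also did not pass, with adjusted p of 0.569 and 0.548.

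Adam12, the meltrin alpha gene of muscle progenitors and mesenchyme, stood at 132, 146 and 167 CPM in p21, 184, 182 and 187 CPM in p16 and 177, 205 and 209 CPM in control libraries. The p21 libraries were the 3 lowest (1.33-fold lower, log2 -0.41 ± 0.0878, adjusted p = 0.00521). Of the 8 markers of skeletal muscle only Acta1 was abundant, averaging 349 CPM in p21, 199.8 CPM in p16 and 113 CPM in control cells, while Myod1 averaged at most 0.0406 CPM, Myog at most 0.0281 CPM and Myh8 was at 0 in all libraries. Adam1a, whose product is part of a sperm-related complex in mouse testis, was 1.80-fold lower at 0.757, 0.614 and 0.630 CPM in p21, 1.25, 1.34 and 0.872 CPM in p16 and 1.23, 1.09 and 1.31 CPM in control libraries (adjusted p = 0.0119). Its value is uncertain, since 63.7% of its exon bases overlap another annotated gene and 24.0% overlap Mapkapk5, a gene at 35.1 CPM.

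Of the 16 tested Adamts genes proper 1 rose and 3 fell (6.25% and 18.8%), and of the 5 Adamts-like genes 2 rose. With both kinds together, 14.3% rose and 14.3% fell, against 19.3% and 20.7% of all genes tested, so these counts too are not above the background. Adamts20, a versican-cleaving enzyme gene, stood at 0.358, 0.351 and 0.210 CPM in p21, 0.672, 0.352 and 0.392 CPM in p16 and 1.64, 1.003 and 0.962 CPM in control libraries. Every p21 and p16 library was below every control library. It was 3.88-fold lower in p21 cells (log2 -1.95 ± 0.352, adjusted p = 0.002), the largest fall of the 22 called genes. This fall rests on few reads, 26, 24 and 12 in the p21 libraries, and control replicate 1 stood above the other control libraries. Adamtsl5 and Adamtsl4, whose products bind fibrillin microfibrils, were 1.41-fold (adjusted p = 0.000588) and 1.27-fold higher (adjusted p = 0.0091). Adamtsl5 stood at 48.3, 45.1 and 45.6 CPM in p21, 34.5, 32.7 and 39.3 CPM in p16 and 31.6, 34.7 and 32.3 CPM in control libraries, and Adamtsl4 at 49.9, 52.1 and 52.9 CPM in p21, 39.1, 41.5 and 39.9 CPM in p16 and 35.1, 40.8 and 45.9 CPM in control libraries. In both the p21 libraries were the 3 highest.

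Adamts6, Adamts7 and Adamts12 passed by small changes that did not hold in every setting. Adamts6, a fibrillin-related enzyme gene, was lower (log2 -0.31 ± 0.0931, adjusted p = 0.0257), with an adjusted p of 0.0592 without control replicate 2, 0.0845 without control replicate 3, 0.0945 without p21 replicate 1 and 0.102 without p21 replicate 2. Adamts7, which like Adamts12 encodes an enzyme that cleaves the cartilage protein COMP, was lower (log2 -0.35 ± 0.108, adjusted p = 0.0284), with 0.0575 without control replicate 2, 0.0901 without control replicate 3, 0.108 without p21 replicate 1, 0.0631 without p21 replicate 2 and 0.052 without p21 replicate 3. Adamts12 was higher (log2 0.18 ± 0.063, adjusted p = 0.0431) and lost its call without any single library other than control replicate 3 and p21 replicate 1, with adjusted p from 0.0517 to 0.137. Its call was also lost with no filter and with only the 2 groups compared. The aggrecan-cleaving enzyme gene Adamts5 (log2 -0.15, adjusted p = 0.271) and Adamts1 (log2 0.14, adjusted p = 0.163) did not pass. None of the 3 procollagen N-proteinase genes Adamts2, Adamts3 and Adamts14 passed in edgeR, nor at an unadjusted p under 0.05 or in DESeq2, with log2 fold changes from -0.67 to 0.05. Of the 22 calls in p21 cells, 15 held in each of the 18 alternative settings that could give a value.

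**Figure D4:**
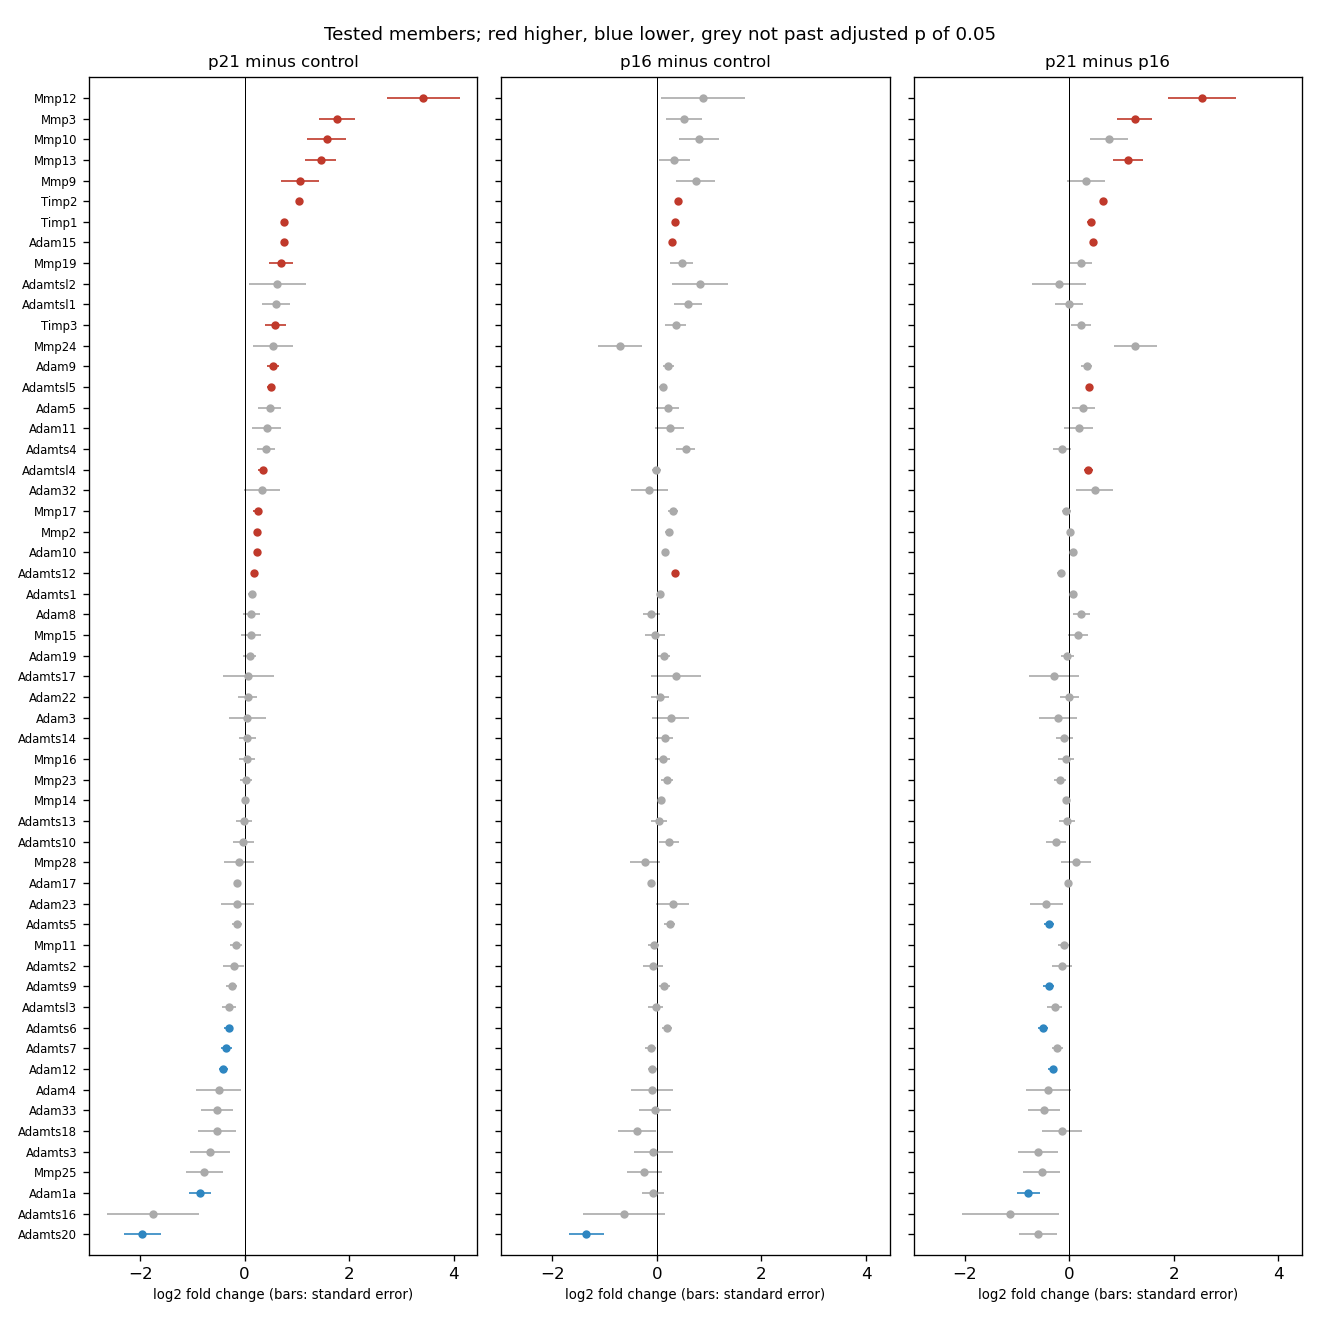
Log2 fold change of each of the 56 tested genes for p21 minus control, p16 minus control and, in the last panel, p21 minus p16, with SE as bars and genes ordered by the first contrast. Red points passed as higher and blue points as lower at an adjusted p of 0.05, 22 in the first panel, 5 in the second and 13 in the last.

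The p16 libraries were then set against the same control libraries. Timp2, Timp1, Adam15 and Adamts12 rose and Adamts20 fell, and no Mmp gene passed. The 5 called genes were 8.93% of the 56 tested genes, against 7.22% of all genes tested (3.57% higher, 3.65% lower; 520 and 532 genes, or 444 and 683 when scaled by library size alone). The count is near the background. The median log2 fold change was 0.15 over the 56 genes and -0.01 over all genes tested.

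Timp2 was 1.32-fold higher in p16 than in control cells (log2 0.40 ± 0.0515, adjusted p = 0.00587) and was the only 1 of the 5 calls that held in every alternative. Timp1 was 1.27-fold higher (log2 0.35 ± 0.064, adjusted p = 0.0157), with an adjusted p of 0.0582 without p16 replicate 1 and 0.0635 without p16 replicate 2. Adam15 was 1.22-fold higher (log2 0.28 ± 0.0566, adjusted p = 0.02), with 0.063 without control replicate 2 and 0.0689, 0.0629 and 0.0557 without p16 replicates 1, 2 and 3. Its call was also lost with replicates 1 and 2 only. Adamts12, the COMP-cleaving enzyme gene, stood at 106, 116 and 111 CPM in p21, 118, 129.7 and 126 CPM in p16 and 92.9, 95.0 and 106 CPM in control libraries, so that the p16 libraries were the 3 highest. It was 1.27-fold higher in p16 cells (log2 0.35 ± 0.0631, adjusted p = 0.0148), with 0.0586 without control replicate 2 and 0.0719 without p16 replicate 2. Adamts20 was 2.56-fold lower (log2 -1.36 ± 0.337, adjusted p = 0.0424) and passed again, among the fits without a single library, only in the one without p21 replicate 3. The adjusted p without the others was 0.0525 to 0.155. The call of Adamts20 was also lost with replicates 1 and 2 only and with only the 2 groups compared.

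Of the 16 tested Mmp genes none passed between p16 and control cells in edgeR, against 7.22% of all genes tested. For 16 genes a count of 0 is near that share. At an unadjusted p under 0.05, 2 were higher, and 2 were higher in DESeq2 (Mmp2 with an adjusted p of 0.0151 and Mmp17 with 0.0196). The log2 fold changes of the cluster genes were 0.33 ± 0.298 for Mmp13, 0.52 ± 0.345 for Mmp3, 0.80 ± 0.387 for Mmp10 and 0.88 ± 0.805 for Mmp12, none of which passed at an unadjusted p under 0.05 or in DESeq2. The value of Mmp12 was 1.47 without control replicate 2 (adjusted p = 0.454) and 0.20 with replicates 1 and 2 only (adjusted p = 0.881). Without control replicate 1, the highest control library for Mmp13, Mmp3 and Mmp10, Mmp10 (log2 1.44, adjusted p = 0.0331) and Mmp13 (log2 0.82, adjusted p = 0.0455) passed. With the replicate number as a block, 14 of the 56 genes passed (13 higher, 1 lower), against 17.0% of all genes tested in the same fit (8.59% higher, 8.38% lower). Among them were Timp3 (adjusted p = 0.0028), Mmp2 (0.00844), Mmp17 (0.023), Mmp19 (0.0386), Adamts5 (0.0347) and Adamts6 (0.0316), all higher in p16 cells. In the main fit their adjusted p were 0.301, 0.0657, 0.0654, 0.224, 0.169 and 0.239 in that order, and none passed.

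The third comparison, p21 minus p16, tested whether the groups given the 2 inhibitors differed. Timp2, Timp1, Adam15, Mmp12, Mmp3, Mmp13, Adamtsl4 and Adamtsl5 were higher in p21 cells, and Adamts5, Adamts6, Adamts9, Adam12 and Adam1a were lower. These 13 genes were 23.2% of the 56 tested, against 12.8% of all genes tested (6.19% higher, 6.64% lower). The median log2 fold change was -0.05 over the 56 genes and -0.01 over all genes tested.

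Timp2 was 1.56-fold (log2 0.64 ± 0.0516, adjusted p = 0.000386), Adam15 1.38-fold (log2 0.46 ± 0.0567, adjusted p = 0.00155) and Timp1 1.33-fold higher in p21 than in p16 cells (log2 0.41 ± 0.0641, adjusted p = 0.00429). These 3 calls held in every alternative. Mmp12 was 5.82-fold (log2 2.54 ± 0.65, adjusted p = 0.0327), Mmp3 2.38-fold (log2 1.25 ± 0.33, adjusted p = 0.0368) and Mmp13 2.17-fold higher in p21 cells (log2 1.12 ± 0.29, adjusted p = 0.0342). Mmp10, of the same cluster, did not pass between p21 and p16 cells (log2 0.77 ± 0.363, adjusted p = 0.197). Mmp12 and Mmp13 each lost the call without any single p21 or p16 library, with adjusted p of 0.0516 to 0.117 for Mmp12 and 0.0676 to 0.105 for Mmp13. Mmp13 also lost it with replicates 1 and 2 only. Mmp3 lost it without control replicate 2 (0.061), p21 replicate 1 (0.0765), p21 replicate 2 (0.126) and p16 replicates 1, 2 and 3 (0.121, 0.0947 and 0.0883). The direction was the same in each of these fits. Mmp12 entered this test too through its p21 libraries, so its adjusted p is no independent support. Of the 16 macrophage markers 10 were also higher in p21 than in p16 cells (62.5%, against 6.19% of all genes tested), and their part in the Mmp12 result was not tested.

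Adamts5, which encodes the main aggrecan-cleaving enzyme of mouse cartilage, stood at 85.4, 105 and 101 CPM in p21, 114, 131 and 136 CPM in p16 and 106, 98.3 and 118 CPM in control libraries. It was 1.31-fold lower in p21 than in p16 cells (log2 -0.39 ± 0.099, adjusted p = 0.0329), and the p16 libraries lay above every p21 library. Adamts6 stood at 24.1, 22.8 and 27.7 CPM in p21, 32.3, 34.1 and 38.98 CPM in p16 and 28.8, 30.3 and 33.2 CPM in control libraries, and was 1.41-fold lower in p21 than in p16 cells (log2 -0.50 ± 0.0932, adjusted p = 0.00979). Without p21 replicate 1 the adjusted p of Adamts6 was 0.0535 and that of Adamtsl5, otherwise 1.31-fold higher in p21 cells (adjusted p = 0.00932), was 0.051. Adamts5 lost its call without p21 replicate 1 (0.129) or 2 (0.0511) and without p16 replicate 2 (0.104) or 3 (0.103). Adamtsl4 (adjusted p = 0.0227) lost it without any single p21 or p16 library, with 0.0548 to 0.087. Adamts9, a versican-cleaving enzyme gene (adjusted p = 0.0423), lost it without any of these and without control replicate 2, with 0.0525 to 0.147. Adam12 (adjusted p = 0.0453) lost it without control replicate 2, p21 replicate 1 or 2 or any p16 library, with 0.0694 to 0.171. Adam1a (adjusted p = 0.0448) lost it without control replicate 2 or 3, any p21 library or p16 replicate 1 or 2, with 0.0516 to 0.137. With replicates 1 and 2 only, Adamts5, Adamts9 and Adam1a also lost the call. The call of Adam1a was lost too with no filter and with only the 2 groups compared. Summed markers of cartilage and bone, where Mmp13, Adamts5 and Adam12 are also known, were 408 to 659 CPM in p21, 638 to 1105 CPM in p16 and 697 to 1390 CPM in control libraries, and their part was not tested. Most of that sum was Col2a1, the cartilage collagen gene, which averaged 469 CPM in p21, 771 CPM in p16 and 945 CPM in control cells, while Comp ran the other way with 7.93 CPM in p21, 5.48 CPM in p16 and 4.86 CPM in control cells. Of the 6 tested markers, Comp passed as higher (adjusted p = 0.0193) and Col2a1 as lower (adjusted p = 0.021) in p21 than in control cells. Between p21 and p16 cells 0 of the 6 passed in edgeR, with 1 higher and 1 lower at an unadjusted p under 0.05 and 1 higher in DESeq2.

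With the replicate number as a block, 21 of the 56 genes passed between p21 and p16 cells (12 higher, 9 lower), against 24.0% of all genes tested in the same fit (11.8% higher, 12.2% lower). Among them were Timp3 (adjusted p = 0.0186), Adam9 (0.0055) and Adam8 (0.0278), higher in p21 cells, and Adamts12 (0.0285), lower in p21 cells. In the main fit their adjusted p were 0.501, 0.0736, 0.397 and 0.113 in that order, and none passed. Replicates 1 and 2 of all groups, without replicate 3, gave 24 called members in p21 minus control, 3 in p16 minus control and 11 in p21 minus p16, where 37.5%, 4.06% and 12.3% of all genes tested in that fit passed.

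The balance of inhibitor to protease transcripts was set out within each library, since a ratio inside a library does not depend on its scaling. The sum of Timp transcripts over the sum of Mmp transcripts, both per kb of exon, was 5.61, 5.28 and 5.21 in p21 libraries, 3.94, 3.93 and 3.63 in p16 libraries and 3.52, 3.39 and 3.07 in control libraries. The groups did not overlap. The Timp sum averaged 1776 ± 61.0 CPM per kb in p21, 1289 ± 8.62 in p16 and 1002 ± 51.3 in control cells (SD, n = 3), and the Mmp sum 331 ± 9.65 CPM per kb in p21, 337 ± 16.3 in p16 and 302 ± 22.0 in control cells. Timp transcripts made up 71.4% of the per-kb sum of all 84 genes in p21, 65.0% in p16 and 61.6% in control cells. Since Timp1 and Timp2 carry most of the Timp sum and Mmp2 and Mmp14 most of the Mmp sum, the ratio repeats the values of these 4 genes and no test was made of it.

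Timp2 over Mmp14, the pair that with proMMP2 forms the activation complex, was 4.94, 4.69 and 4.79 in p21, 2.90, 3.10 and 2.89 in p16 and 2.32, 2.38 and 2.37 in control libraries. Mmp2 over Mmp14 was 1.35, 1.38 and 1.43 in p21, 1.29, 1.35 and 1.30 in p16 and 1.10, 1.20 and 1.23 in control libraries. For the first ratio no group overlapped another, and for the second the p21 and p16 libraries were next to each other and above the control libraries. These are ratios of transcripts, and protein or enzyme activity was not measured.

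**Figure D5:**
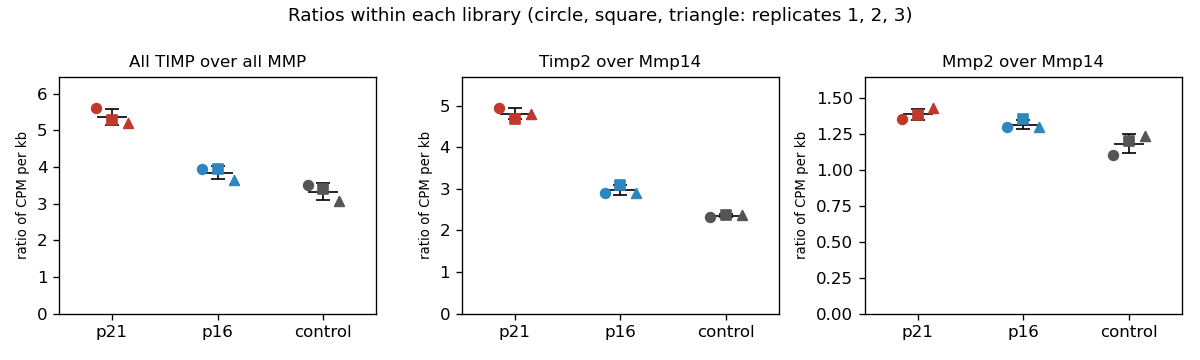
Ratios of summed Timp to summed Mmp transcripts, of Timp2 to Mmp14 and of Mmp2 to Mmp14 within each library of the p21, p16 and control groups, each from CPM per kb of exon, with the mean as a wide line and the SD as bars (n = 3). The p21 libraries lie above all others for the first pair of ratios, at 5.21 to 5.61 and at 4.69 to 4.94.

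Of 17 tested genes that process or restrain metalloproteinases, 6 rose and 2 fell in p21 cells, 1 rose and 1 fell in p16 cells against control, and 2 were higher and 0 lower in p21 than in p16 cells. These were 35.3% and 11.8%, 5.88% and 5.88%, and 11.8% and 0% of the list, against 19.3% and 20.7%, 3.57% and 3.65%, and 6.19% and 6.64% of all genes tested. The median log2 fold changes of the list were 0.13, 0.10 and 0.11 in these contrasts. Tspan17, a tetraspanin gene whose product binds ADAM10, averaged 35.6 ± 2.54 CPM in p21, 24.2 ± 2.19 CPM in p16 and 17.1 ± 1.70 CPM in control cells and was 2.09-fold higher in p21 cells (adjusted p = 3.5e-05) and 1.42-fold higher in p16 cells (adjusted p = 0.0148), each against control. Bsg, which encodes the MMP inducer basigin, averaged 876 ± 27.5 CPM in p21, 732 ± 26.3 CPM in p16 and 681 ± 61.6 CPM in control cells and was 1.29-fold higher in p21 than in control cells (adjusted p = 0.00205). Pcsk5, a proprotein convertase gene, was 2.29-fold higher in p21 than in control cells (adjusted p = 0.00272), at 5.30 ± 1.79 CPM in p21, 4.17 ± 0.527 CPM in p16 and 2.31 ± 0.158 CPM in control cells. Sdc4, the syndecan 4 gene, was 1.33-fold lower in p21 (adjusted p = 0.00109) and 1.19-fold lower in p16 cells (adjusted p = 0.0494), each against control.

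Of the 4 tested genes for astacin and pappalysin metalloproteinases, which lie outside the MMP and ADAM families, 3 rose in p21 cells and 2 in p16 cells against control, and none passed between p21 and p16 cells in edgeR, at an unadjusted p under 0.05 or in DESeq2. Of all genes tested, 19.3% rose in p21 and 3.57% in p16 cells. Pappa, which encodes the protease that frees insulin-like growth factors from a binding protein, averaged 219.8 ± 40.0 CPM in p21, 194 ± 28.9 CPM in p16 and 106 ± 24.5 CPM in control cells. It was 2.08-fold higher in p21 (adjusted p = 0.00172) and 1.83-fold higher in p16 cells (adjusted p = 0.0239). Bmp1, the procollagen C-proteinase gene, averaged 412 ± 37.0 CPM in p21, 368 ± 40.3 CPM in p16 and 283 ± 26.6 CPM in control cells and was 1.46-fold (adjusted p = 0.00195) and 1.30-fold higher (adjusted p = 0.0462) in these 2 groups against control.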

How the data were processed

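The authors deposited whole-number read counts per gene symbol, not normalized, for 9 libraries. Per the labels' protocols, RNA was column-extracted and libraries were made with TruSeq RNA Library Prep Kit v2, which does not mark strand. Per the submitters' processing notes, the build was mm10 and the tools were featureCounts 1.4.6, Subread, TopHat2 2.0.14 and Bowtie2 2.2.6. The sources used here do not give the annotation, strand setting or multimapping rule. Reads from overlapping genes and close paralogs could therefore be split.

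From the counts, genes were kept with filterByExpr (minimum count 10) and fitted with edgeR 4.0.16 in R 4.3.3: TMM, quasi-likelihood F test, 3 group means over the 9 libraries, Benjamini-Hochberg adjustment over all 14572 genes tested, threshold 0.05. The SE of a log2 fold change is its size over the square root of F. CPM were computed after TMM, and levels between genes per kb of the exon union of GENCODE M21 (GRCm38). Alternatives were DESeq2 1.42.0, its size factors in edgeR, library size alone, no filter, at least 1 CPM in 3 libraries, a replicate block, a replicate 3 term, replicates 1 and 2 only, the 2 groups compared only, and each library left out in turn. The pipeline was tested on simulated data. Every pair of replicates differed by more than counting noise (chi-square over degrees of freedom 10.4 to 101).

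The members and lists were chosen with earlier results of these data known. Genes named were the 4 Timp genes, a panel of 11 genes, every member called in a contrast, the 3 members of each family highest per kb, Cdkn1a and Cdkn2a, and up to 4 called genes of each list. Between p16 and control, the correlation of deviations from the group mean was 0.251, 0.109 and 0.545 for replicates 1, 2 and 3. Between p21 and p16 it was 0.159, 0.287 and 0.478. All were above the limit of 0.1, so blocked fits were given beside the main fits, which hold no replicate term. For p21 and control the values were 0.183, 0.0253 and 0.489. Unlike numbers could correlate as well, with 0.299 for p16 replicate 2 and control replicate 1. For p21 replicate 2 and control replicate 1 it was 0.358. The correlations therefore do not establish that the numbers pair the libraries. Protein sequences were not used here.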

Additional observations from a re-analysis of the deposited data

How the results depend on the processing

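No called direction turned round in any of the alternatives run. With p16 minus control, the 5 called members became 8 with DESeq2, 14 with the replicate block, 17 with a term for replicate 3 and 3 with replicates 1 and 2 only, and all genes called, 1052, became 1821, 2473, 2645 and 593 in the same order and 555 with only the 2 groups compared. Leaving out single libraries gave 1 to 7 members (2 without control replicate 2, 2, 1 and 3 without p16 replicates 1, 2 and 3) and 222 to 949 genes. With p21 minus p16, the 13 members became 21 with the replicate block and 20 with the replicate 3 term, and 1870 genes became 3496 and 3622. Leaving out single libraries gave 3 to 14 members (3 and 5 without p21 replicates 1 and 2, 6, 5 and 6 without p16 replicates 1, 2 and 3) and 600 to 2464 genes. With p21 minus control, the 22 members ranged from 15 to 29 over the alternatives. With the replicate block there were 29 (19 higher, 10 lower, where 49.7% of all genes passed). In that fit Adam17 (adjusted p = 0.022) and Adamts9 (0.0406) also passed as lower, against 0.0821 and 0.0926 in the main fit. For this contrast the correlations between libraries of the same number were not all above 0.1. The cause of these shifts was not tested. Scaling by library size alone left 18 of the 22, without Timp3 (adjusted p = 0.0555), Mmp9 (0.0519), Mmp17 (0.0619) and Adamts12 (0.0878). Genes near 1 CPM, such as Mmp10, Mmp12 and Adamts20, rest on few reads.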

Other observations

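The substrates that ADAM10 or ADAM17 shed are another list read beside their sheddase genes. Of 18 tested, 5 rose and 2 fell in p21 cells against control, 2 rose and 1 fell in p16 cells against control, and 0 were higher and 2 lower in p21 than in p16 cells, where an unadjusted p under 0.05 gave 2 higher and DESeq2 gave 1 higher. The share called was 38.9% in p21 against control, near the 39.9% of all genes tested, 16.7% in p16 against control, where it was 7.22% of all genes, and 11.1% in p21 against p16, where it was 12.8%. The median log2 fold changes were 0.15, 0.11 and 0.14 in these contrasts. Notch1, a receptor cut by ADAM10, stood at 29.7, 32.0 and 28.6 CPM in p21, 38.6, 40.3 and 36.5 CPM in p16 and 48.5, 49.5 and 48.6 CPM in control libraries. The 3 groups did not overlap, and Notch1 was 1.62-fold lower in p21 (log2 -0.70 ± 0.0549, adjusted p = 2.3e-05) and 1.27-fold lower in p16 than in control cells (log2 -0.35 ± 0.0545, adjusted p = 0.00923), and 1.28-fold lower in p21 than in p16 cells (adjusted p = 0.0043).

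App, the amyloid precursor gene, was 1.30-fold higher in p21 than in control cells (1302 ± 16.6 CPM in p21, 1156 ± 50.2 CPM in p16 and 1002 ± 68.8 CPM in control cells; adjusted p = 0.000756). Tnfrsf1b, which encodes a TNF receptor, was 1.19-fold higher (adjusted p = 0.00342). Btc, the betacellulin gene, passed in p21 (3.86-fold higher, adjusted p = 0.00507) and in p16 cells (3.23-fold higher, adjusted p = 0.0434) but at low levels, 0.584 ± 0.128 CPM in p21, 0.489 ± 0.172 CPM in p16 and 0.151 ± 0.0655 CPM in control cells.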
